A study of Saccharomyces cerevisiae with 41 samples.

Results

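NUTs, or Nrd1-unterminated transcripts, are RNAs of budding yeast (Saccharomyces cerevisiae) that appear or lengthen when the termination factor Nrd1 is lost from the nucleus. The 55 NUTs described here are those whose span overlaps, by 1 base or more, a row of the same tables that holds a small nucleolar RNA (snoRNA) or a small nuclear RNA of the spliceosome (names starting with snR, and LSR1). They were found from the coordinates in the row names, out of 11587 rows in all, and 1471 other NUTs and 82 snR and LSR1 rows stood beside them. Most snoRNA genes of yeast end where the Nrd1-Nab3-Sen1 complex stops RNA polymerase II. The nuclear exosome, helped by Rrp6 and by the TRAMP complex that adds short oligo(A) tails, then trims the precursor back to its mature end. Box C/D snoRNAs guide 2′-O-methylation and box H/ACA snoRNAs guide pseudouridylation of ribosomal RNA, and a few of either class are needed to cut the ribosomal RNA precursor. A NUT over a snoRNA gene is thus the stretch in which an extended precursor or read-through transcript of that gene would be counted.

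All strains are vegetative cells in a BY4741 background, per the labels, grown at 25 °C and then kept for 90 min at 37 °C. In RNA depleted of ribosomal RNA the strains were csl4-ph (n = 3), dis3-1, rrp6 deletion, enp1-1 and srm1-ts (n = 2 each) and a control (n = 2). In oligo d(T)-selected RNA they were csl4-ph (n = 3), enp1-1 and srm1-ts (n = 2 each) and the control (n = 3). A further table holds single 3′ tags of csl4-ph, enp1-1 and the control, each with a Pab1GFP vector or an empty vector (n = 3 in each of the 6 groups). CSL4 encodes a cap subunit of the exosome, DIS3 its catalytic subunit and RRP6 its nuclear exonuclease. ENP1 encodes a factor that matures the small ribosomal subunit, SRM1 the nucleotide exchange factor for Ran that drives nuclear transport, and PAB1 the main cytoplasmic poly(A)-binding protein. The labels give no further genotype for the control, do not say how many isolates a strain stands for and do not say whether replicates were separate cultures, so the p-values measure the spread between these libraries. Less RNA per cell and fewer cells that hold an RNA cannot be told apart in these bulk samples.

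Depth, strain identity and the altered genes touch every result below. The libraries held 12795066 to 32142495 estimated counts in ribo-depleted RNA, 15589670 to 33251600 in oligo d(T) RNA and 1458382 to 3027707 in 3′ tags. All 55 members passed the filter on low counts in the first 2 kinds of RNA and 53 did in 3′ tags, where NUT0402 and NUT0692 did not. RRP6 had 39.04 ± 1.27 CPM (counts per 1e6 of the scaled library, SD, n = 2) in the rrp6 deletion, against 185 ± 7.06 CPM in the control (n = 2). CSL4 in csl4-ph and DIS3 in dis3-1 did not pass the test (adjusted p = 0.395 and 0.0737), and the level of a mutant transcript does not check such an allele. LYS2 and MF(ALPHA)1, a biosynthetic marker and a mating pheromone gene, differed between the strains beyond the altered gene, and their part in the results was not tested. The labels of csl4-ph ribo-depleted replicate 1 name oligo d(T) selection in 1 place, while its title and table say ribo-depleted, where it was kept. Without it 42 members rose and 8 fell in that comparison with the control, as with it.

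The members lie over 57 of the 82 snR and LSR1 genes. These are 24 of 29 H/ACA genes, 31 of 47 C/D genes and 2 of 6 spliceosomal RNA genes, snR14 (the U4 RNA) and snR19 (the U1 RNA). By the gene beneath them 25 members are H/ACA, 27 are C/D, 2 are spliceosomal and NUT1417 touches both an H/ACA and a C/D gene. Most members (50) overlap 1 such gene, 4 overlap 2 and NUT1510 overlaps 3, the cluster of snR51, snR70 and snR41. Some share a gene and thus sequence: NUT0103 and NUT0891 both lie over snR63, NUT0402 and NUT1178 over snR60, NUT0692 and NUT1399 over snR81, and NUT1416 and NUT1417 over snR9. They are not independent readings of those genes.

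The spans reach downstream of the genes. Of the 55 members, 53 run at least 50 bases past the annotated 3′ end of a gene they overlap, by 124 to 5016 bases with a median of 948, and 26 run more than 1000 bases past it. Their lengths are 356 to 5220 bases with a median of 1410, against 1541 for the other NUTs. The row names carry no strand, but the NUT numbers run through the genome in 2 rounds (1 to 816 and 817 to 1526), and 49 members have the round that goes with the strand of their gene. Among pairs of member and gene with that fit, 15 of 23 H/ACA pairs start within 50 bases of the gene's own start, with a median of 10 bases before it. Only 3 of 30 C/D pairs do, with a median of 178.5 bases before the gene. A total of 44 members also overlap an open reading frame (ORF) on either strand, over a median of 56.18% of their length, and 11 overlap none. Whether strand was used in counting is not given in the sources used here, so reads of a member, of its snoRNA and of an ORF on either strand may be divided between rows.

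Sequence beyond the 3′ ends was read from the R64 (sacCer3) genome of RefSeq, as 120 bases on the strand of the gene from the base after its annotated end. Capitals mark the letters GTAG or GTAA, bound as RNA by Nrd1, and TCTT, bound by Nab3, on that strand only. The first 7 windows belong to members with large or contrasting changes described below, and snR65 and snR32 to members that also overlap a ribosomal protein gene.
snR45 (chrXVI:821904-822023, + strand, under NUT0805): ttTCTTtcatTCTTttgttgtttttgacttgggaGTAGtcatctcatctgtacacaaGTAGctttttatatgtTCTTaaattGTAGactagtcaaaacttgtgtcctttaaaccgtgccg
snR48 (chrVII:609697-609816, + strand, under NUT0275): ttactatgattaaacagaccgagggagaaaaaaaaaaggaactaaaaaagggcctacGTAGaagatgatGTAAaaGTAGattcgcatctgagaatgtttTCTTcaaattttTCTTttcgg
snR30 (chrXII:199390-199509, + strand, under NUT0490): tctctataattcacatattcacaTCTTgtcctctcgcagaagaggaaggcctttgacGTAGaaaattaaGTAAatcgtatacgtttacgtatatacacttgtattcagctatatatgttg
snR11 (chrXIII:652533-652652, + strand, under NUT0607): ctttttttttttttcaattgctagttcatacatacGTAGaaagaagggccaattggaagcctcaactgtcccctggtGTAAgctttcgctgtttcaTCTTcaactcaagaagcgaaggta
snR13 (chrIV:1403043-1403162, + strand, under NUT0167): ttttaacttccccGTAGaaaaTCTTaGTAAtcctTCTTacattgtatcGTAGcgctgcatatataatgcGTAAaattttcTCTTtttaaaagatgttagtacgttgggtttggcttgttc
snR60 (chrX:349010-349129, − strand, under NUT1178): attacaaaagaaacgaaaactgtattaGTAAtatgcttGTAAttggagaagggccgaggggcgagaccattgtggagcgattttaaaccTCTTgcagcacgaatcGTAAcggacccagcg
snR82 (chrVII:317056-317175, + strand, under NUT0255): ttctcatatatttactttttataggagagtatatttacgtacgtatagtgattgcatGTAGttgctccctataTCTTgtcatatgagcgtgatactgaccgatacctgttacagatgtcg
snR65 (chrIII:177283-177402, + strand, under NUT0082): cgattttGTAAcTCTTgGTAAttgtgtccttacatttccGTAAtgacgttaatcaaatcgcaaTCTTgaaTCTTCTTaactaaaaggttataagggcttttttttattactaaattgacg
snR32 (chrVIII:381728-381847, + strand, under NUT0348): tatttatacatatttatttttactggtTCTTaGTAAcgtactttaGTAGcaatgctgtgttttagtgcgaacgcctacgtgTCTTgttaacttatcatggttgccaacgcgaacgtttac

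Both kinds of letters were present in 75.4% of the 57 windows under a member, in 36% of the 25 windows of other snR and LSR1 genes, and in 32.5% of 6002 windows of the same length after protein-coding genes. Nrd1 letters alone were counted in 77.2%, 44% and 59.1% of these, and Nab3 letters in 96.5%, 72% and 58.1%. The 25 other genes include the neighbouring genes snR72 to snR78 of chrXIII, and windows after protein-coding genes begin at the annotated gene end. The sets were not matched in make-up, and no test between them was made. The window of snR13, a snoRNA long used to study this kind of termination, held 4 Nrd1 and 3 Nab3 matches. The window of snR82 held 1 of each. A match is a run of letters and says nothing of binding in these cells, and the windows of members that fell (snR65) held the letters too.

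In ribo-depleted RNA most members were higher in each of the 3 exosome mutants than in the control. In csl4-ph 42 of 55 rose and 8 fell, where 35.4% of all tested rows rose and 41.1% fell, and the members' median log2 fold change was 1.83 against −0.03 over all rows. In dis3-1 45 rose and 5 fell (30.0% and 38.8% of all rows), with a median of 2.17 against −0.07. In the rrp6 deletion 49 rose and 2 fell (30.5% and 35.6% of all rows), with a median of 2.11 against −0.01. The other NUTs, 1404 of which were tested, had medians of 0.60, 0.47 and 0.28 in the same order of mutants. The 3 comparisons share the 2 control libraries, and 42 members were called higher in all 3, against 21.2% of all rows. Scaling on ORFs alone moved the median of all rows up by 0.49 in csl4-ph, 0.42 in dis3-1 and 0.31 in the rrp6 deletion, so that all rows split into 5189 higher and 2927 lower in csl4-ph against 3743 and 4338 with the scaling used. The splits became 4730 and 2444 in dis3-1 against 3169 and 4095, and 4577 and 2471 in the rrp6 deletion against 3224 and 3760.

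**Figure D1:**
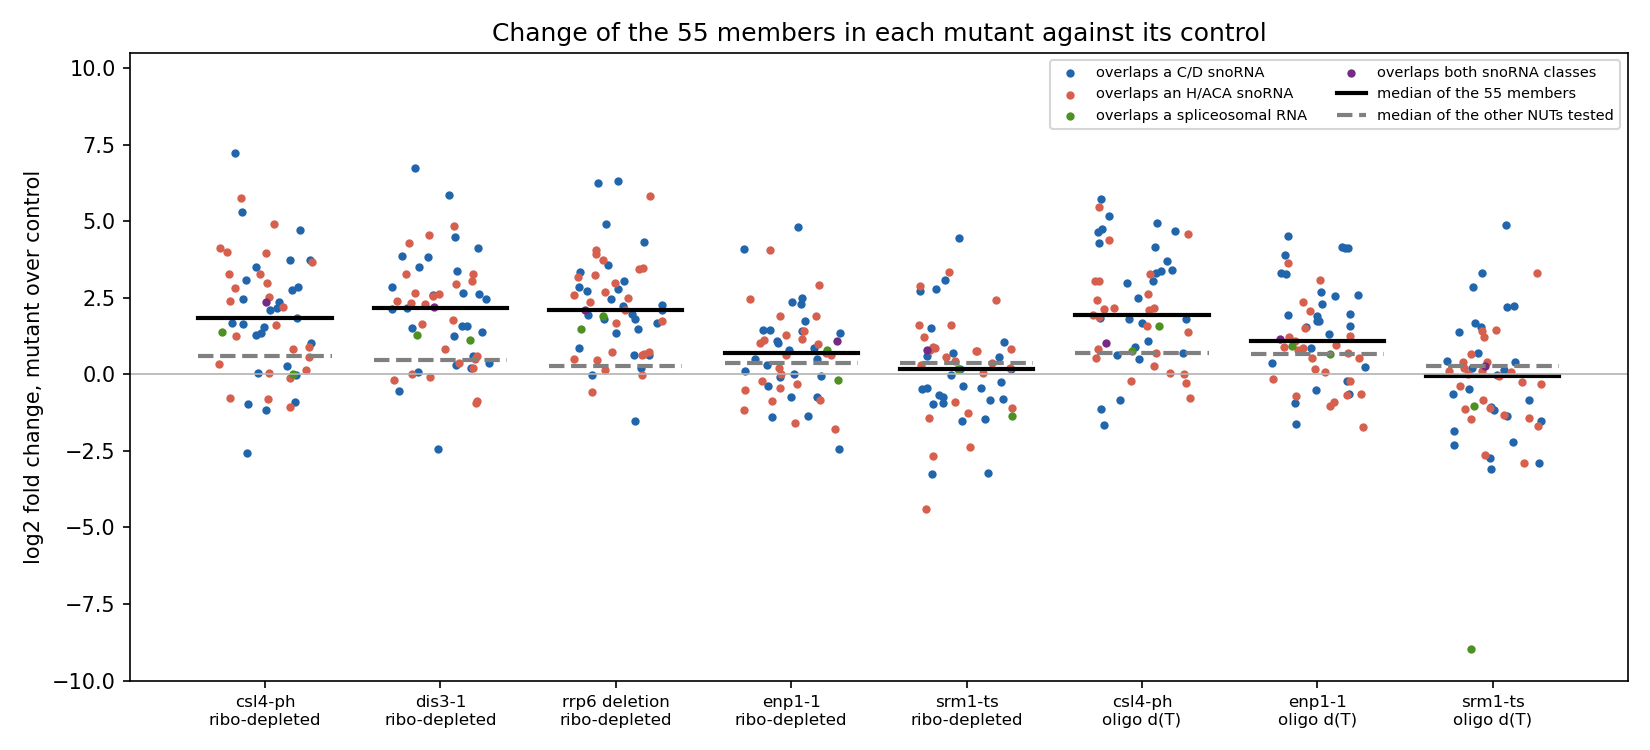
Each point is the log2 fold change of 1 of the 55 members (vertical axis) in 1 mutant against the control of its table (horizontal axis), coloured by the class of RNA it overlaps; black bars are medians of the members and grey dashed bars medians of the other NUTs tested. The members' medians are 1.83, 2.17 and 2.11 in the exosome mutants of ribo-depleted RNA and −0.06 in srm1-ts of oligo d(T) RNA, where the lowest point is NUT0965, which had no counts in srm1-ts and whose fitted fold depends on the prior count.

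NUT0805 (chrXVI:821737-822557, no ORF) showed the largest rise in csl4-ph. It lies over snR45, a C/D snoRNA that guides acetylation of 18S ribosomal RNA, and the printed window after snR45 falls within it. It had 748, 734 and 723 CPM in csl4-ph, 510 and 529 CPM in dis3-1, 382 and 400 CPM in the rrp6 deletion, 137 and 137 CPM in enp1-1, 107 and 106 CPM in srm1-ts, and 5.04 and 4.70 CPM in the control. All mutant libraries thus lay far above both control libraries, and the 3 exosome mutants above enp1-1 and srm1-ts. The log2 fold change was 7.23 ± 0.05 in csl4-ph (SE, edgeR adjusted p = 2.0e-12), 6.73 ± 0.05 in dis3-1 and 6.32 ± 0.05 in the rrp6 deletion. The row of snR45 itself had 71.9, 61.8 and 57.1 CPM in csl4-ph and 60.1 and 61.7 CPM in the control, which overlap, with a log2 fold change of 0.06 that did not pass the test.

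NUT0275 (chrVII:609410-610473, no ORF) lies over snR48, a C/D guide for methylation of 25S ribosomal RNA. It had 112, 105 and 107 CPM in csl4-ph, 159 and 160 CPM in dis3-1, 197 and 220 CPM in the rrp6 deletion, and 2.56 and 2.93 CPM in the control. Here the rrp6 deletion was highest and csl4-ph lowest of the 3, and none overlapped the control. NUT0692 (chrXV:234191-234762, no ORF) lies over snR81, an H/ACA guide for sites in 25S ribosomal RNA and the U2 spliceosomal RNA, and had 65.0, 68.8 and 59.5 CPM in csl4-ph, 26.4 and 28.9 CPM in dis3-1, 73.7 and 60.9 CPM in the rrp6 deletion, and 1.196 and 1.149 CPM in the control. It rose by 5.77 ± 0.15 in csl4-ph, 4.55 ± 0.16 in dis3-1 and 5.83 ± 0.16 in the rrp6 deletion on the log2 scale. NUT1399, the other member over snR81, belongs to the round of the opposite strand and was the lowest member in the control per length, at 0.447 CPM per kb.

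NUT0490 (chrXII:198743-199806, of which 25.09% lies in ADE16) is the member over snR30, an H/ACA snoRNA that is essential because the small subunit precursor is not cut without it. It had 1968, 1931 and 1853 CPM in csl4-ph, 984 and 1007 CPM in dis3-1, 1009 and 924 CPM in the rrp6 deletion, and 119 and 124 CPM in the control, so that csl4-ph was highest and dis3-1 and the rrp6 deletion overlapped. The log2 fold change was 3.99 ± 0.06 in csl4-ph, 3.04 ± 0.06 in dis3-1 and 3.00 ± 0.06 in the rrp6 deletion. The snR30 row fell in csl4-ph by 0.73 and had 7106, 6381 and 6125 CPM there against 9968 and 11770 CPM in the control. When NUT0490 and snR30 were summed as 1 feature the log2 fold change turned to −0.38 in csl4-ph, −0.59 in dis3-1 and −0.04 in the rrp6 deletion (the snR30 row held more CPM than the member in every library).

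Other H/ACA members rose alongside. NUT0607 (chrXIII:652276-653934, over snR11, a guide for 25S ribosomal RNA, and over CMC4) had 351, 358 and 350 CPM in csl4-ph, 378 and 404 CPM in dis3-1, 338 and 340 CPM in the rrp6 deletion, and 20.9 and 19.1 CPM in the control. The exosome mutants lay close to each other and all above the control. NUT0258 (chrVII:345978-347165), over snR10, which guides pseudouridylation and also helps precursor cleavage, averaged 657 ± 16.9 CPM in csl4-ph (SD, n = 3) and 67.4 ± 1.81 CPM in the control (n = 2). NUT1169 over snR37 averaged 679 ± 18.6 CPM in csl4-ph and 52.8 ± 1.63 CPM in the control, while the snR37 row fell by 3.25 on the log2 scale, and the sum of both rows fell by 1.64. NUT0255 (chrVII:316778-317297, no ORF) over snR82 averaged 249 ± 7.70 CPM in csl4-ph and 25.4 ± 2.05 CPM in the control. Of the 25 H/ACA members 20 rose and 4 fell in csl4-ph with a median of 2.20, and of the 27 C/D members 20 rose and 4 fell with a median of 1.83.

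Among C/D members, NUT1178 (chrX:348660-349417) over snR60, a guide for 25S ribosomal RNA, averaged 306 ± 9.98 CPM in csl4-ph and 22.7 ± 0.961 CPM in the control, a log2 fold change of 3.75 ± 0.04. NUT0402, which also overlaps snR60 but belongs to the other strand's round, was not called in any of the 3 exosome mutants. NUT0167 (chrIV:1402897-1404582, also over TRS31 and PRP3) over snR13 averaged 251 ± 8.82 CPM in csl4-ph and 58.1 ± 4.07 CPM in the control, a log2 fold change of 2.11 ± 0.05. NUT1162 (chrX:136846-140103, also over DAS1) spans the shared transcript of snR128, the U14 RNA needed for 18S ribosomal RNA, and snR190. It averaged 487 ± 3.69 CPM in csl4-ph and 168 ± 2.15 CPM in the control. Both pairs of groups were apart without overlap.

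The 2 spliceosomal members differed. NUT1342 (chrXIV:228192-230663) over snR19, the U1 RNA, had 125, 126 and 123 CPM in csl4-ph, 115 and 120 CPM in dis3-1, 140 and 131 CPM in the rrp6 deletion, and 49.4 and 46.7 CPM in the control, and was called higher in all 3. Summed with snR19 its log2 fold change turned to −0.46, −0.77 and −0.20 in these mutants. NUT0965 (chrV:166951-167575, no ORF) over snR14, the U4 RNA, had 18.3, 17.1 and 15.3 CPM in csl4-ph and 18.2 and 15.2 CPM in the control, which overlap, and the difference, 0.02 ± 0.16 on the log2 scale, did not pass the test. Scaling on ORFs gave a called rise of 0.51, and the value turned below 0 when csl4-ph replicate 1 or control replicate 2 was left out (−0.04 and −0.10) or when snR14 was added (−0.18). In dis3-1 it had 35.8 and 36.4 CPM and in the rrp6 deletion 57.9 and 68.4 CPM, both called higher than the control.

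**Figure D2:**
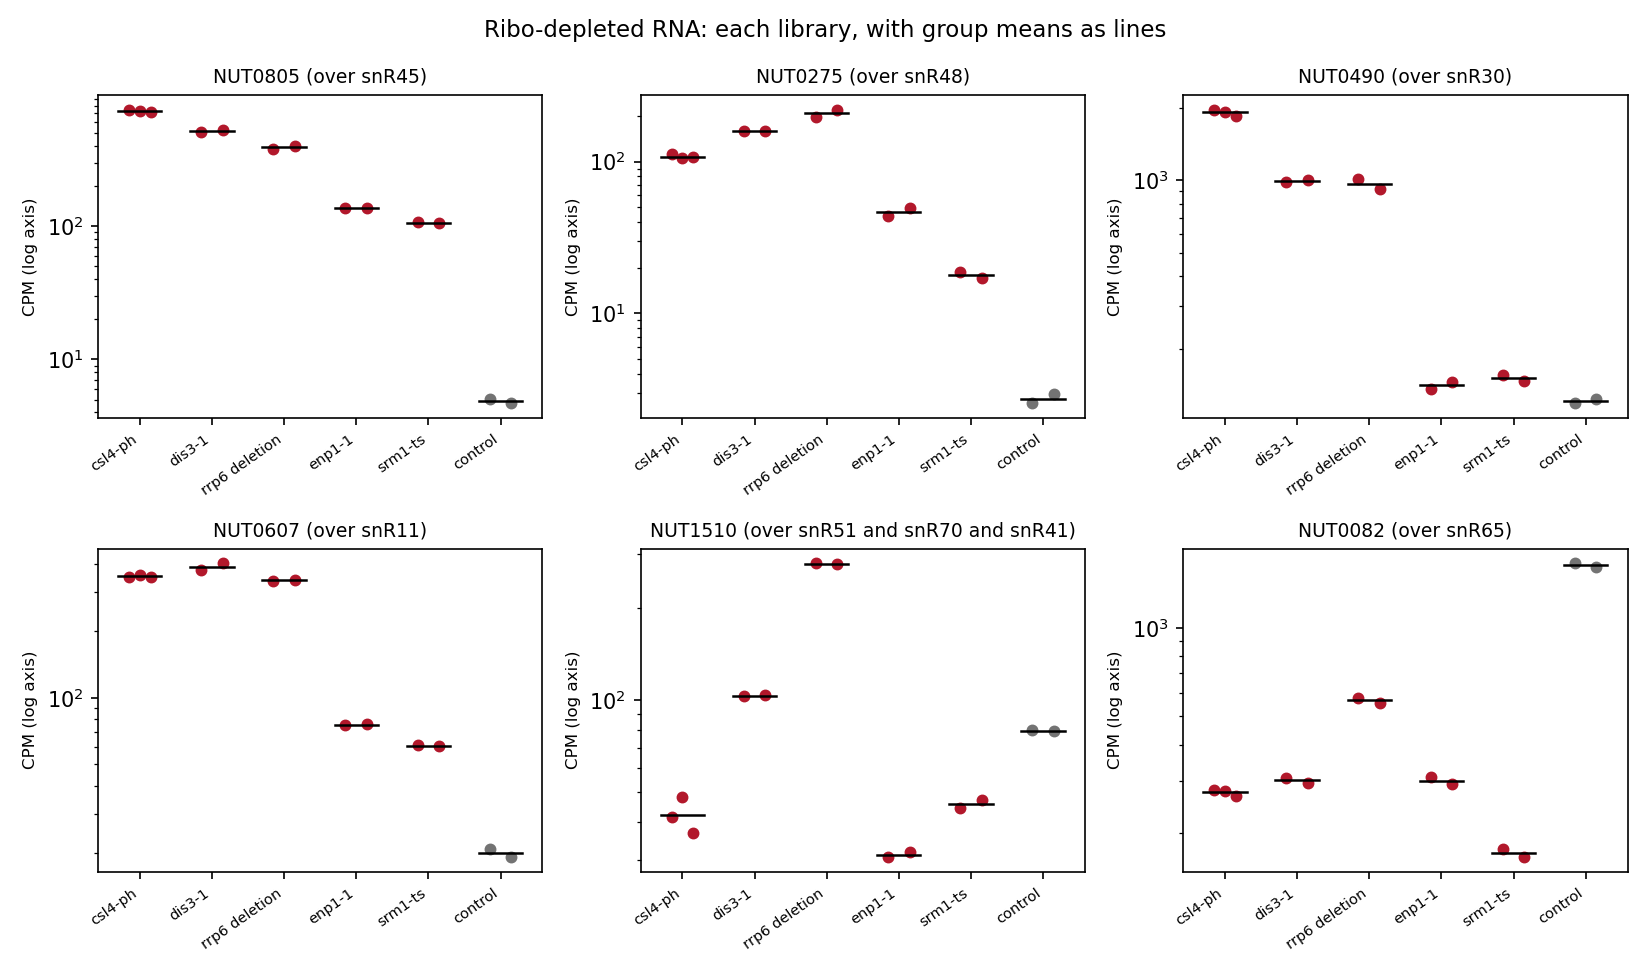
CPM in each ribo-depleted library (vertical log axis) for 6 members, by strain (horizontal axis), with lines at the group means. NUT0805, NUT0275, NUT0490 and NUT0607 are higher in every csl4-ph, dis3-1 and rrp6 deletion library than in the control, NUT1510 is split between the mutants, and NUT0082 is lower in every mutant.

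The members that did not rise in all 3 exosome mutants numbered 13, among them 5 of the 6 members over ribosomal protein genes (NUT0013, NUT0082, NUT0103, NUT0348 and NUT0953). The other of these, NUT0891, rose in all 3. NUT0082 (chrIII:177059-177887) overlaps snR65, a C/D guide for 25S ribosomal RNA, and lies in RPS14A, a small subunit protein gene, over 46.8% of its length. It had the highest level of all members in the control, 1973 CPM per kb, and had 281, 279 and 268 CPM in csl4-ph, 309 and 298 CPM in dis3-1, 576 and 557 CPM in the rrp6 deletion, 310 and 294 CPM in enp1-1, 177 and 166 CPM in srm1-ts, and 1656 and 1616 CPM in the control. Every mutant library lay below both control libraries. The log2 fold change was −2.57 ± 0.04 in csl4-ph, −2.43 ± 0.04 in dis3-1 and −1.53 ± 0.04 in the rrp6 deletion, beside −2.53, −2.41 and −1.54 for the RPS14A row. NUT0013, over snR56 and RPS8A, fell in csl4-ph by 1.18 and in dis3-1 by 0.55, beside −1.85 and −1.77 for the RPS8A row, and in the rrp6 deletion it stood at −0.03 and was not called, and with scaling on ORFs it was called higher at 0.29. NUT0859 (over snR43, an H/ACA guide, and VMA9) fell in all 3, by 0.77, 0.92 and 0.58 in the order above. NUT1428 (over snR36, an H/ACA guide, and SER1) fell in csl4-ph by 1.08 and in dis3-1 by 0.87 and was not called in the rrp6 deletion, at 0.15. There it was called higher with median-ratio scaling (0.25), scaling on ORFs (0.46) and DESeq2 (0.25). Whether these reads come from the ORF or from the snoRNA side was not tested.

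The counts of calls differed with the length past the gene and with ORF overlap. In csl4-ph 25 of the 26 members that run over 1000 bases past the 3′ end rose and 1 fell, against 17 and 7 of the other 29 (35.4% and 41.1% of all rows). The median of the longer members was above that of the others in csl4-ph (2.18 against 1.29). It was below it in dis3-1 (1.97 against 2.56), in the rrp6 deletion (2.11 against 2.72) and in oligo d(T) csl4-ph (1.90 against 2.17). Of the 11 members over no ORF 9 rose and 1 fell in csl4-ph with a median of 2.86, and all 11 rose in dis3-1 (median 3.27) and in the rrp6 deletion (median 3.35). Of the 44 over an ORF 33 rose and 7 fell in csl4-ph with a median of 1.66. These splits are descriptions and no test between them was made.

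The exosome alleles were set against each other directly. Between csl4-ph and dis3-1 19 members were higher and 21 lower (26.9% and 29.3% of all rows), with a median of 0.02. Between csl4-ph and the rrp6 deletion 15 were higher and 27 lower (32.9% and 33.3% of all rows), with a median of −0.07. With scaling on ORFs 23 members were higher, with members summed with their genes 8 were, and all rows split into 4292 higher and 2880 lower, against 3476 and 3519. Between the rrp6 deletion and dis3-1 31 were higher and 11 lower (26.1% and 21.4% of all rows), with a median of 0.21, and with scaling on ORFs all rows split into 2157 higher and 2843 lower, against 2761 and 2260. The largest of the 3 changes against the control was that of the rrp6 deletion in 29 members, of csl4-ph in 17 and of dis3-1 in 9.

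NUT0490 was higher in csl4-ph than in dis3-1 by 0.95 ± 0.05 and than in the rrp6 deletion by 0.99 ± 0.05 on the log2 scale. Summed with snR30 these became 0.22, no longer called, and −0.34. NUT0805 was likewise higher in csl4-ph, by 0.50 ± 0.03 and 0.91 ± 0.03. NUT0186, which lies over the C/D genes snR67 and snR53 and no ORF, went the other way: it had 14.9, 17.3 and 14.0 CPM in csl4-ph, 66.1 and 74.9 CPM in dis3-1, 68.1 and 98.8 CPM in the rrp6 deletion, and 30.9 and 28.6 CPM in the control. It was below the control in csl4-ph and above it in dis3-1 and the rrp6 deletion, with a log2 fold change of csl4-ph over dis3-1 of −2.20 ± 0.16 and over the rrp6 deletion of −2.44 ± 0.16. NUT1510, over the C/D cluster of snR51, snR70 and snR41, had 41.6, 48.3 and 36.7 CPM in csl4-ph, 103 and 104 CPM in dis3-1, 280 and 279 CPM in the rrp6 deletion, and 79.6 and 79.4 CPM in the control. Its libraries were lowest in csl4-ph, then the control, then dis3-1, and highest in the rrp6 deletion, without overlap, and the rrp6 deletion was above dis3-1 by 1.43 ± 0.09. NUT0692 was also higher in the rrp6 deletion than in dis3-1, by 1.28 ± 0.11, and NUT0903 (over snR47, a C/D guide) was lower, at −0.90 ± 0.12.

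In oligo d(T)-selected RNA, where molecules with a poly(A) stretch are retained, 47 of 55 members were higher in csl4-ph and 6 lower, against 38.2% and 39.6% of all rows. The members' median was 1.93, beside 0.69 for the other NUTs and 0.00 for all rows, and scaling on ORFs moved the median of all rows up by 0.34 (all rows 5063 higher and 3127 lower, against 3998 and 4148). A total of 40 members were higher in csl4-ph in both selections, whose control libraries differ, against 26.8% of all rows. All 11 members over no ORF rose, with a median of 4.29.

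NUT0490 had 2844, 2959 and 2952 CPM in csl4-ph, 108 and 107 CPM in enp1-1, 99.0 and 95.8 CPM in srm1-ts, and 128, 117 and 118 CPM in the control. Only csl4-ph stood above the control, by 4.60 ± 0.04 on the log2 scale (adjusted p = 1.57e-10). The snR30 row had 1613, 1544 and 1602 CPM in csl4-ph and was listed at 0 in every other oligo d(T) library. NUT0167 over snR13 had 632, 558 and 556 CPM in csl4-ph, 61.1 and 59.8 CPM in enp1-1, 23.7 and 25.4 CPM in srm1-ts, and 71.9, 70.2 and 68.0 CPM in the control. It thus rose in csl4-ph and fell in srm1-ts, where its log2 fold change was −1.51 ± 0.07. NUT1178 over snR60 had 354, 380 and 383 CPM in csl4-ph, 155 and 153 CPM in enp1-1, 16.9 and 15.9 CPM in srm1-ts, and 9.23, 9.88 and 11.7 CPM in the control, so that csl4-ph was highest and every mutant lay above the control.

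Members of low abundance rose as well. NUT0805 had 268, 269 and 278 CPM in csl4-ph, 118 and 118 CPM in enp1-1, 52.2 and 51.5 CPM in srm1-ts, and 4.91, 5.06 and 5.54 CPM in the control. This is the order it also had in ribo-depleted RNA. NUT1395 over snR58, a C/D guide for 25S ribosomal RNA, averaged 43.4 ± 0.301 CPM in csl4-ph (SD, n = 3) and 1.41 ± 0.151 CPM in the control (n = 3). NUT1036 over snR39B, another C/D guide, averaged 52.8 ± 8.61 CPM in csl4-ph and 2.67 ± 0.533 CPM in the control. The members that fell in csl4-ph included NUT0082, with 390, 329 and 344 CPM in csl4-ph and 1161, 1075 and 1108 CPM in the control, NUT0013 (−1.13 ± 0.11) and NUT1428 (−0.78 ± 0.10).

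In enp1-1, the ribosome assembly mutant, 40 members were higher and 13 lower in oligo d(T) RNA (37.8% and 38.6% of all rows), with a median of 1.11. In ribo-depleted RNA 33 were higher and 15 lower (34.8% and 37.0% of all rows), with a median of 0.71, beside 0.37 for the other NUTs. With each member summed with its genes the ribo-depleted counts turned to 21 higher and 27 lower. Scaling on ORFs moved the median of all rows up by 0.29 in oligo d(T) RNA (4834 higher and 3288 lower, against 3956 and 4034) and by 0.30 in ribo-depleted RNA (4655 and 2938, against 3681 and 3909). NUT0805 rose by 4.81 ± 0.05 in ribo-depleted and 4.51 ± 0.04 in oligo d(T) RNA, and NUT0275 by 4.09 ± 0.14 and 4.14 ± 0.14. NUT0490 rose in ribo-depleted RNA by 0.22 ± 0.06, which turned to −0.85 when snR30 was added. It fell in oligo d(T) RNA by 0.16, a fall that was not called when any 1 of the control libraries was left out and turned to 0.13 with scaling on ORFs. NUT0167 in oligo d(T) RNA, at −0.21 ± 0.07, was not called when any 1 of the 5 libraries compared was left out and turned to 0.08 with scaling on ORFs. Set against enp1-1 directly in oligo d(T) RNA, csl4-ph was higher in 37 members and lower in 3 (26.6% and 26.7% of all rows), with a median of 0.83. The gap was 4.76 ± 0.05 for NUT0490 and 3.27 ± 0.07 for NUT0167, while NUT0275 was lower in csl4-ph, at −0.82 ± 0.12, as was NUT0186, at −1.26 ± 0.26. Without csl4-ph replicate 1 there were 5 lower members.

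In srm1-ts, the nuclear transport mutant, the members went both ways. In oligo d(T) RNA 21 were higher and 25 lower (39.3% and 37.7% of all rows), with a median of −0.06, and in ribo-depleted RNA 28 were higher and 22 lower (39.4% and 37.0% of all rows), with a median of 0.17. Their shares thus lay on either side of those of all rows. With scaling on ORFs the rows of the ribo-depleted table split into 5079 higher and 3053 lower, against 4165 and 3904, a shift of the median by 0.33, and in oligo d(T) RNA the shift was 0.14. In oligo d(T) RNA 19 members were higher in csl4-ph and lower in srm1-ts, each against the same control libraries, as were 6.25% of all rows. One pair of members that went opposite ways lies over snR63, a C/D guide for 25S ribosomal RNA. Both also overlap RPL31A, whose row stood at −3.33 in oligo d(T) and −2.49 in ribo-depleted srm1-ts. Whether their reads come from the ORF or from the snoRNA side was not tested. NUT0891 had 51.9 and 50.7 CPM in srm1-ts and 2.27, 1.66 and 1.23 CPM in the control, far apart, and rose by 4.87 ± 0.22. NUT0103, of the other strand's round, had 35.2 and 37.0 CPM in srm1-ts and 318, 307 and 288 CPM in the control and fell, at −3.08 ± 0.05. In ribo-depleted RNA NUT0891 rose by 3.08 ± 0.22 and NUT0103 stood at −3.23 ± 0.05, and with snR63 added the value of NUT0891 turned to −0.11.

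Further members changed in srm1-ts. NUT1320, over snR86, an H/ACA guide, and FAA4, had 20.7 and 21.1 CPM in srm1-ts and 436 and 451 CPM in the control in ribo-depleted RNA, a log2 fold change of −4.41 ± 0.07. The FAA4 row stood at −3.78 in the same comparison. NUT0953 over snR80 and RPL12A stood at −2.88 ± 0.11 in oligo d(T) RNA, beside −3.66 for the RPL12A row. Whether the reads of NUT1320 and NUT0953 come from the ORF or from the snoRNA side was not tested. NUT0255 over snR82 rose in oligo d(T) RNA by 3.33 ± 0.06, with 73.6 and 81.1 CPM in srm1-ts and 8.06, 7.47 and 7.57 CPM in the control. NUT0965 over snR14 had no count in either oligo d(T) srm1-ts library and 3.30, 2.41 and 2.64 CPM in the control, at least 27.1-fold lower against a floor of 3 counts per library (0.0847 to 0.264 CPM, counting error only).

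**Figure D3:**
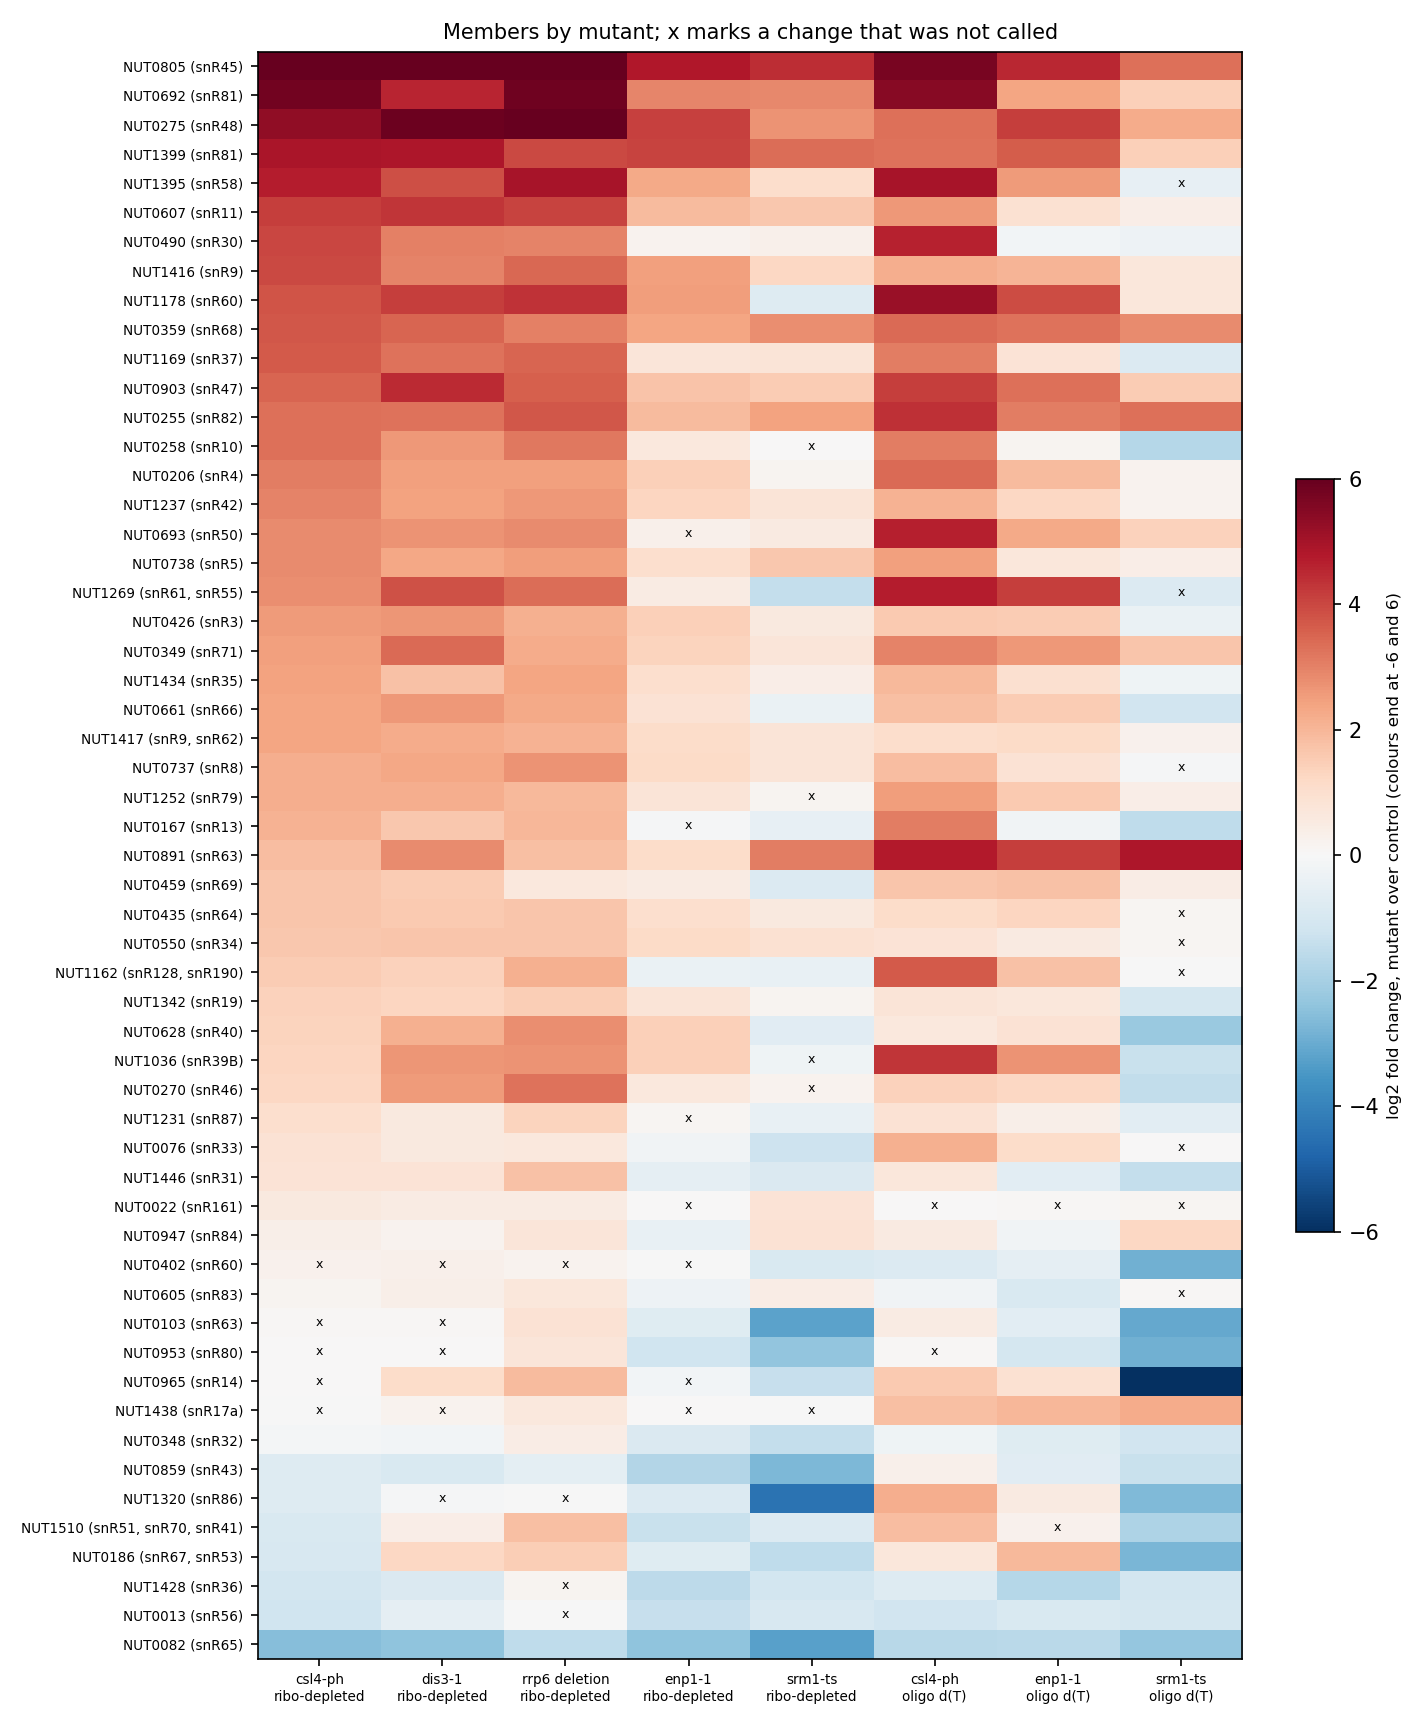
Log2 fold change of each of the 55 members (rows, with the genes they overlap) in 8 comparisons of a mutant with its control (columns), ordered by the change in ribo-depleted csl4-ph; red is higher and blue lower in the mutant, colours end at −6 and 6, and an x marks a change that was not called. Red fills most of the exosome columns, NUT0082 at the foot is blue throughout, and the srm1-ts columns mix both colours.

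Across the 5 mutants of ribo-depleted RNA 24 members were called higher in every one and 2, NUT0859 and NUT0082, lower in every one, against 15.4% and 17.2% of all rows. Across the 3 of oligo d(T) RNA 20 were higher in every one and 5 lower, against 20.8% and 22.7% of all rows. All mutants of a table share its control libraries, so these are counts and not independent repeats. Together the members took 1.88% of the unscaled counts in ribo-depleted csl4-ph, 1.581% in dis3-1, 1.509% in the rrp6 deletion, 0.7008% in enp1-1, 0.4786% in srm1-ts and 0.4994% in the control. Their summed scaled CPM averaged 1.64e+04 in csl4-ph, 1.449e+04 in dis3-1 and 1.647e+04 in the rrp6 deletion. The sums were 6425 in enp1-1, 4737 in srm1-ts and 6752 in the control. On the scaled measure enp1-1 and srm1-ts thus lay below the control, and csl4-ph did not exceed the rrp6 deletion.

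Members and the gene rows beneath them moved apart in ribo-depleted RNA, and a gene row does not separate mature RNA from longer transcripts. Of 61 pairs 48 had a tested gene row, and in csl4-ph the member's log2 fold change exceeded that of the gene in 44, by a median of 2.34. In 18 pairs the member rose and the gene fell, and in 10 both rose. In dis3-1 the member exceeded the gene in 46 pairs and in the rrp6 deletion in 40. The separation was not particular to the exosome mutants. In enp1-1 the member exceeded the gene in 43 pairs (median 1.29), with 15 in which the member rose and the gene fell. In srm1-ts it did so in 34 pairs (median 0.99), with 12 of that kind. The rrp6 deletion differed in that both rose in 20 pairs, with 4 in which the member rose and the gene fell. In oligo d(T) RNA from csl4-ph 37 pairs were tested, the member exceeded the gene in 11 (median difference −0.68), and both rose in 28. The overlapped genes themselves had medians of −0.46 in ribo-depleted and 3.52 in oligo d(T) csl4-ph, the second 3.43 with the 9 genes that were at 0 in a group set at their bounds. In csl4-ph the snR10 row, for example, rose by 3.52 ± 0.09 with oligo d(T) selection, and its ribo-depleted rise was 0.36. How the authors' counting shared reads between a member and the gene inside it is not given in the sources used here. With each member summed with its genes, lower calls in ribo-depleted RNA became 17 in csl4-ph, 11 in dis3-1 and 5 in the rrp6 deletion.

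**Figure D4:**
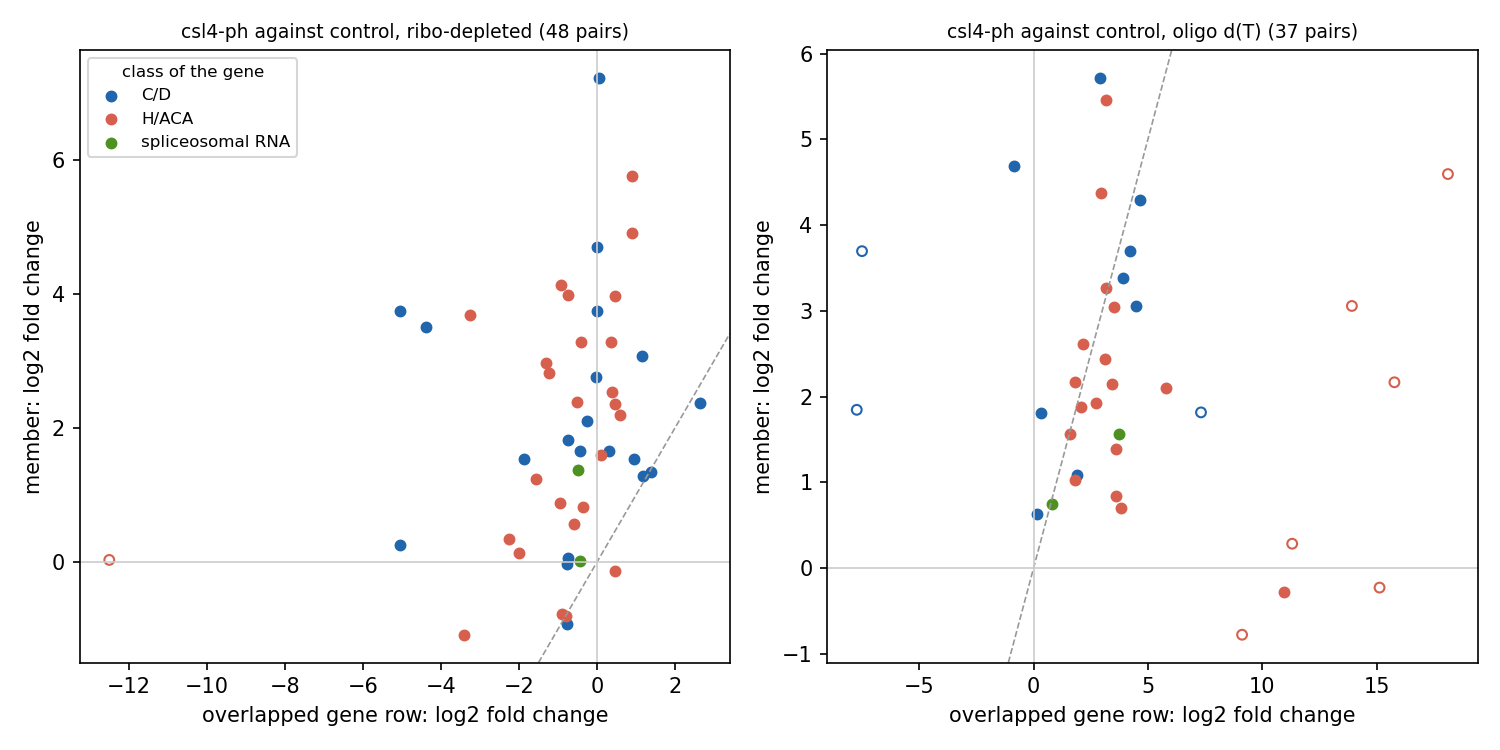
Log2 fold change in csl4-ph over control of each member (vertical axis) against that of the snoRNA or spliceosomal RNA row it overlaps (horizontal axis), in ribo-depleted RNA (48 pairs, left) and oligo d(T) RNA (37 pairs, right); the dashed line marks equal change and open symbols are genes with no count in a group, whose fitted fold depends on the prior count. Most points on the left lie above the line, and on the right most lie below it.

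The change of each member was compared between the selections in 1 fit of both tables. In csl4-ph 19 members had a greater change in oligo d(T) RNA and 22 a smaller one (27.7% and 27.1% of all rows), with a median difference of 0.00. The classes split: 13 of the 27 C/D members were greater and 7 smaller, with a median of 0.43, and 5 of the 25 H/ACA members were greater and 13 smaller, with a median of −0.33. Of members over 1000 bases past the gene 4 were greater and 15 smaller, and of the others 15 and 7. NUT1036 over snR39B was greater by 2.99 ± 0.35, NUT1320 over snR86 by 2.95 ± 0.11 and NUT0891 over snR63 by 2.90 ± 0.32. NUT0275 was smaller, at −1.99 ± 0.25, as were NUT0607 and NUT0805, both at −1.53. With the genes added, NUT0607 turned to 0.99 and NUT0805 to 1.70, and the counts became 35 greater and 8 smaller.

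In enp1-1 27 members had a greater change in oligo d(T) RNA and 9 a smaller one (22.8% and 30.2% of all rows), of which 20 and 1 were C/D members, and with the genes added 41 were greater and 1 smaller. NUT1269 over the C/D genes snR61 and snR55 was greater by 3.60 ± 0.43. In srm1-ts 13 were greater and 32 smaller (22.5% and 27.7% of all rows), with a median of −0.59. NUT0258 over snR10 was smaller, at −1.79 ± 0.10, and NUT1169 over snR37 at −1.66 ± 0.10, which turned to 1.76 when snR37 was added. Selection differs between these tables together with everything else that differs between them, which cannot be told apart.

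Single 3′ tags read the ends of polyadenylated molecules. With the empty vector 33 of 53 tested members were higher in csl4-ph and 9 lower (32.2% and 15.4% of all rows), with a median of 1.80 beside 0.22 for all rows. In enp1-1 32 were higher and 6 lower (25.0% and 13.9% of all rows), with a median of 1.43 beside 0.20. Scaling on ORFs moved the median of all rows up by 0.19 in both, and in enp1-1 all rows then split into 1855 higher and 602 lower, against 1593 and 883. Without csl4-ph empty vector replicate 3 the lower members in csl4-ph were 5.

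NUT1395 over snR58 had 1087, 1184 and 959 CPM in csl4-ph, 47.7, 56.4 and 47.2 CPM in enp1-1, and 6.15, 6.14 and 3.57 CPM in the control. NUT1169 over snR37 had 1906, 2001 and 1614 CPM in csl4-ph, 583, 492 and 572 CPM in enp1-1, and 18.5, 19.6 and 11.7 CPM in the control. NUT1162 over snR128 and snR190 had 1155, 1281 and 1158 CPM in csl4-ph, 267, 390 and 374 CPM in enp1-1, and 20.7, 17.2 and 13.8 CPM in the control. In all 3 the groups stood in the order csl4-ph, enp1-1 and control with no overlap. Their log2 fold changes in csl4-ph were 7.67 ± 0.22, 6.8 ± 0.23 and 6.12 ± 0.22. NUT1036 over snR39B averaged 1239 ± 155 CPM in csl4-ph (SD, n = 3) and 24.0 ± 4.50 CPM in the control. NUT1320 over snR86 averaged 1690 ± 64.5 CPM in csl4-ph and 32.1 ± 5.71 CPM in the control. The tag row of DAS1, which NUT1162 also overlaps, stood at 10.56 in csl4-ph and 7.33 in enp1-1. For FAA4, which NUT1320 also overlaps, the tag row stood at 4.29 in csl4-ph. Which transcript the tags of NUT1162 and NUT1320 end was not tested. NUT0255 over snR82 had no tag in the control libraries and was at least 13.9-fold higher in csl4-ph and at least 4.79-fold higher in enp1-1 (floor of 3 counts per library, 1.01 to 1.94 CPM).

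For some members the tags did not follow 1 or both of the other kinds of RNA. NUT0490, which rose in csl4-ph in both selections, had 242, 221 and 213 CPM of tags in csl4-ph, 303, 261 and 303 CPM in enp1-1, and 400, 400 and 424 CPM in the control, and fell in csl4-ph by 0.85 and in enp1-1 by 0.50. The tag row of ADE16, which this member overlaps, stood at −1.01 in csl4-ph and −1.18 in enp1-1. Which transcript the tags of NUT0490 end was not tested. NUT0859, which fell in ribo-depleted csl4-ph, had 388, 435 and 373 CPM of tags in csl4-ph and 76.7, 77.3 and 69.9 CPM in the control. Its tags went the way of its oligo d(T) RNA, which was called higher in csl4-ph. There it had 117.5, 114.8 and 116.6 CPM in csl4-ph and 99.33, 87.89 and 98.93 CPM in the control. NUT1428, which fell in csl4-ph in both selections, had 272, 250 and 258 CPM of tags in csl4-ph and 20.1, 18.4 and 14.8 CPM in the control, above without overlap. NUT0805, the member with the largest rise in ribo-depleted RNA, had few tags, 5.60 ± 2.09 CPM in csl4-ph and 1.09 ± 0.460 CPM in the control (SD, n = 3 each, adjusted p = 0.0134), and was not called without control replicate 1 or 2.

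A few members held most of the tags counted to all of them. NUT0082, NUT0953, NUT0013 and NUT0348, which overlap RPS14A, RPL12A, RPS8A and RPL42B, took 57.77% of all tags of the members. NUT0082 alone took 26.07% and had 2724, 2631 and 2775 CPM in csl4-ph, 3167, 3611 and 3448 CPM in enp1-1, and 9318, 8553 and 9368 CPM in the control. It fell in csl4-ph by 1.74 and in enp1-1 by 1.41. On average over the libraries NUT0013 had 16.49 times the tags of the RPS8A row, and which transcript these tags end was not tested.

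**Figure D5:**
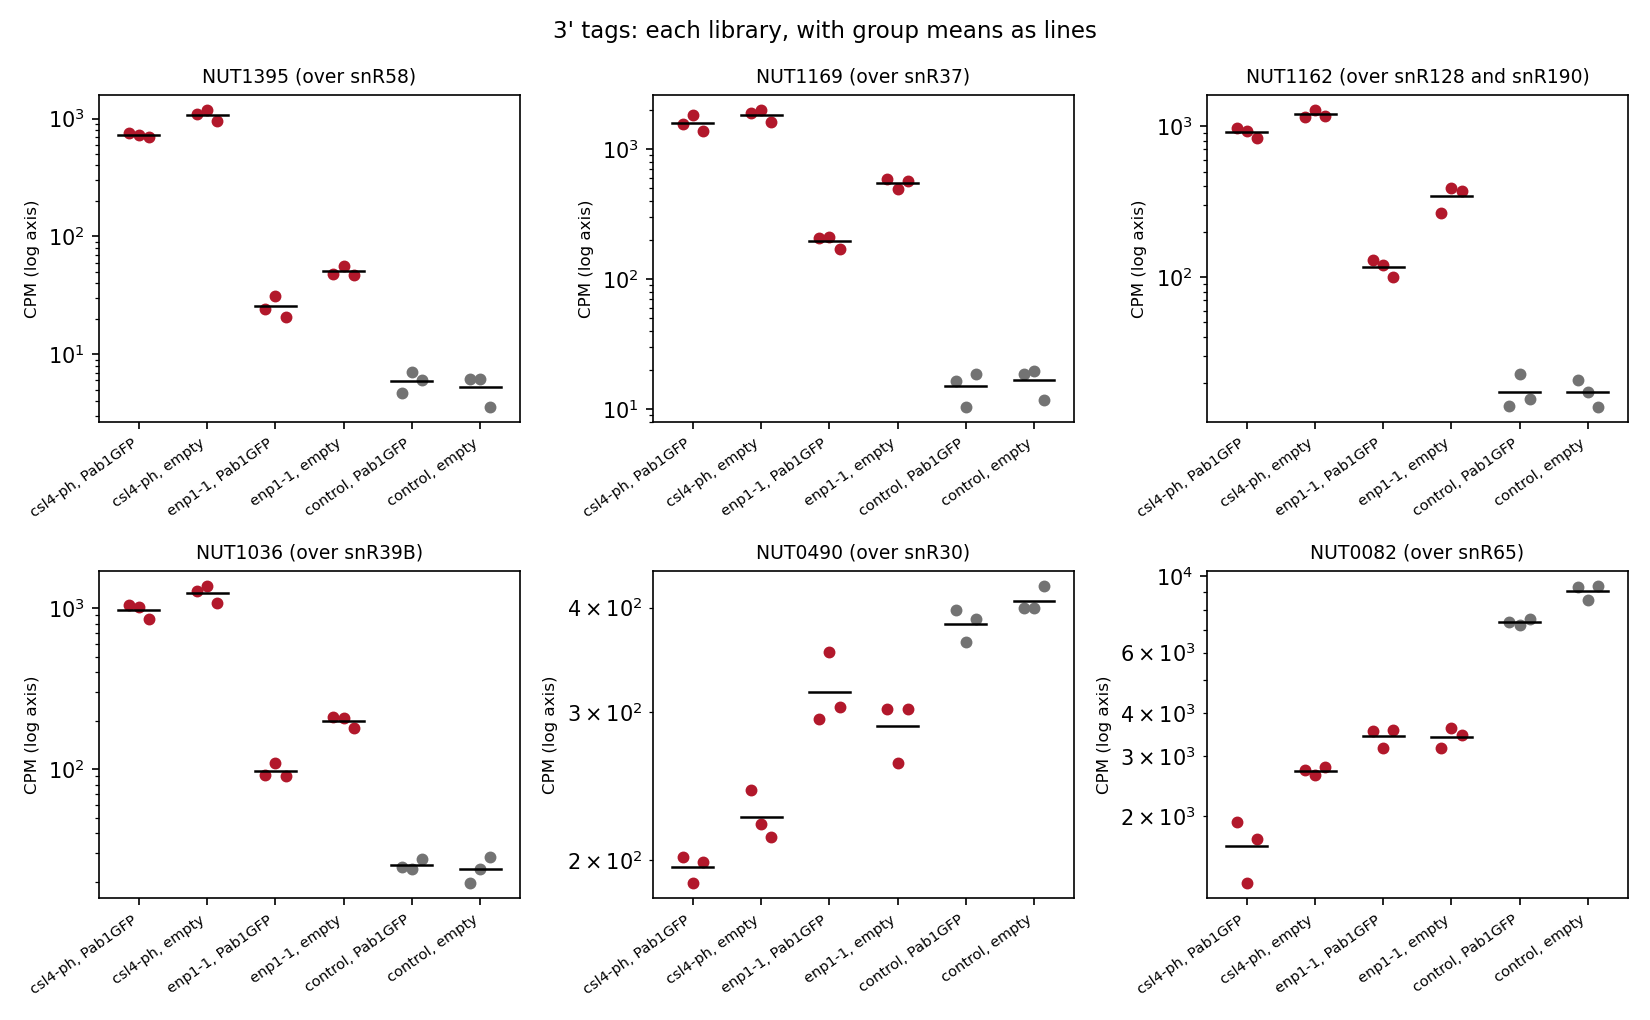
CPM of 3′ tags in each library (vertical log axis) for 6 members in csl4-ph, enp1-1 and control, each with the Pab1GFP vector and the empty vector (horizontal axis), with lines at the group means. NUT1395, NUT1169, NUT1162 and NUT1036 are highest in csl4-ph and lowest in the control, with the enp1-1 Pab1GFP libraries below the enp1-1 empty vector libraries, while NUT0490 and NUT0082 are highest in the control.

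The Pab1GFP vector was set against the empty vector within each strain. In enp1-1 0 members were higher and 17 lower with Pab1GFP (1.71% and 4.95% of all rows), with a median of −0.37 beside −0.10 for all rows. At an unadjusted p under 0.05 edgeR had 1 higher and 23 lower, and DESeq2 called 0 higher and 19 lower. In csl4-ph 0 were higher and 1 lower (0.236% and 0.173% of all rows), with 1 and 21 at an unadjusted p under 0.05 and 0 and 10 called by DESeq2. In the control strain 0 were higher and 0 lower (0.22% and 0.173% of all rows), with 4 and 3 at an unadjusted p under 0.05 and 0 and 0 called by DESeq2. At that unadjusted edgeR threshold 367 of all 6369 rows were higher and 293 lower in the control strain. The percentages in brackets are shares at the adjusted edgeR threshold. They are not a measure for the unadjusted or DESeq2 counts of members. All-row counts are not given here for the unadjusted threshold in enp1-1 and csl4-ph, nor for DESeq2. Those member counts are therefore not read as an excess over other rows. No test of the difference between strains was made for these members.

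In enp1-1 the members that fell included some that enp1-1 had raised. NUT1169 had 205, 211 and 171 CPM with Pab1GFP and 583, 492 and 572 CPM with the empty vector. NUT1162 had 130, 120 and 100 CPM with Pab1GFP and 267, 390 and 374 CPM with the empty vector, and NUT1036 had 92.1, 110 and 91.0 CPM against 212, 207 and 180 CPM. The Pab1GFP libraries lay below the empty vector libraries in each, with log2 fold changes of −1.49 ± 0.18, −1.56 ± 0.17 and −1.03 ± 0.14. NUT1178 over snR60 had 239, 203 and 233 CPM with Pab1GFP and 495, 497 and 542 CPM with the empty vector, at −1.19 ± 0.16. The count of 17 was 6 when the enp1-1 groups were fitted alone and 11 without enp1-1 Pab1GFP replicate 3. In csl4-ph the 1 called member was NUT0082 (−0.72 ± 0.13, adjusted p = 0.0211), which was not called without 4 of the 6 libraries left out singly.

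The genes that act on these transcripts were read in ribo-depleted RNA, where 24.81% of tested ORF rows rose and 57.7% fell in csl4-ph, 18.77% and 55.99% in dis3-1, and 23.17% and 49.5% in the rrp6 deletion. Of the Nrd1-Nab3-Sen1 termination list 4 of 10 tested genes rose and 5 fell in csl4-ph, 3 and 4 in dis3-1, and 4 and 1 in the rrp6 deletion. NAB3, whose protein binds the TCTT letters as RNA, averaged 261 ± 4.40 CPM in csl4-ph (SD, n = 3) and 312 ± 13.2 CPM in the control (n = 2). SEN1, the helicase, averaged 383 ± 3.30 CPM in csl4-ph and 454 ± 16.6 CPM in the control. Scaling on ORFs moved the median of all rows up by 0.49 in this comparison, and the direction of NAB3 and SEN1 was not checked under it. The NRD1 row was listed at 0 in csl4-ph and in the control and gives no reading of that gene.

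The exosome and cofactor list had 1 of 13 tested genes up and 9 down in csl4-ph (7.692% and 69.23%), 1 and 8 in dis3-1 (7.692% and 61.54%), and 6 and 2 in the rrp6 deletion. Its falls in csl4-ph and dis3-1 thus lay near the share of all ORF rows. MTR4, the TRAMP helicase, averaged 187 ± 2.85 CPM in csl4-ph, 269 ± 2.09 CPM in dis3-1, 500 ± 3.64 CPM in the rrp6 deletion and 379 ± 1.93 CPM in the control. TRF5, a poly(A) polymerase of TRAMP, averaged 46.5 ± 5.54 CPM in csl4-ph, 27.2 ± 3.05 CPM in dis3-1, 24.3 ± 0.832 CPM in the rrp6 deletion and 2.30 CPM in the control. Of the 5 genes of the TRAMP list 3 rose and 2 fell in csl4-ph and in dis3-1, and 4 and 0 in the rrp6 deletion. The highest log2 fold change on that list was 4.332 in csl4-ph, 4.185 in enp1-1 and 4.484 in srm1-ts. A rise of that size was thus not particular to the exosome mutants. The snoRNA processing list, which holds RNT1 and LHP1, had 2 of 9 genes up and 6 down in csl4-ph, 2 and 6 in dis3-1, and 2 and 5 in the rrp6 deletion.

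Genes of proteins that package the mature snoRNAs were also counted. Of 7 genes of box C/D proteins 6 fell in csl4-ph and 4 in dis3-1, while 5 rose in the rrp6 deletion. Of 6 genes of box H/ACA proteins 4 fell in csl4-ph and 4 in dis3-1, while 3 rose in the rrp6 deletion. The H/ACA falls in both mutants (66.67% each) and the C/D falls in dis3-1 (57.14%) lay near the share of all ORF rows that fell. NOP1, the methyltransferase of C/D particles, averaged 206 ± 2.41 CPM in csl4-ph, 275 ± 2.08 CPM in dis3-1, 525 ± 3.48 CPM in the rrp6 deletion and 451 ± 6.28 CPM in the control. CBF5, the pseudouridine synthase of H/ACA particles, averaged 272 ± 5.29 CPM in csl4-ph, 335 ± 8.85 CPM in dis3-1, 569 ± 11.6 CPM in the rrp6 deletion and 526 ± 1.86 CPM in the control.

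Over the means of the 10 groups of both RNA selections, the members most like NUT0490 in log2 CPM were NUT0167 over snR13 (Pearson r = 0.952), NUT0258 over snR10 (0.946) and NUT1169 over snR37 (0.943). Those most like NUT0082 were NUT0013 (0.790), NUT1428 (0.755) and NUT0859 (0.733). The points share libraries and controls, and the correlations are descriptions.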

How the data were processed

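Deposited values were estimated counts per row, made by the authors with Salmon 0.12.0 on the R64 (sacCer3) genome after trimming with Trimmomatic 0.39 (oligo d(T) and ribo-depleted RNA) or 0.38 (3′ tags), per the submitters' processing notes. Those notes also list bedtools, DESeq and DESeq2 1.26.0, with no role. Per the labels, paired reads of 50 bases were made with a stranded kit and 3′ tags as single reads of 90 bases. How Salmon shared reads between overlapping rows is not given in the sources used here. The counts of the 41 libraries were rounded. Each table was filtered with filterByExpr, scaled by TMM and fitted as a whole with edgeR 4.0.16 (quasi-likelihood F-test, R 4.3.3), and p-values were adjusted by Benjamini-Hochberg over all rows tested, with calls at 0.05. The change between selections is an interaction term in 1 fit of both RNA tables. CPM are counts per 1e6 of the scaled library, and errors are SD for CPM and SE for log2 fold changes. A floor is 3 counts per library and covers counting error only. Fits were tested on simulated data. DESeq2 1.42.0, other scalings, no filter, the compared groups alone, a replicate block, libraries left out in turn and members summed with their genes were alternatives. Members were named as the 5 largest rises and 3 largest falls with a mean of 10 CPM or more in each comparison of a mutant with its control, with those over spliceosomal RNAs and well-known snoRNAs, of which a selection is described. The members, lists and tests were chosen with earlier results of these data known.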

Additional observations from a re-analysis of the deposited data

Results flagged for a closer look

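The change of a mutant differed between oligo d(T) and ribo-depleted RNA, by an interaction term in edgeR, for many members and many rows in all. In csl4-ph 19 members had a higher change in oligo d(T) RNA and 22 a lower one (27.7% and 27.1% of all rows). In enp1-1 27 had a higher change and 9 a lower one (22.8% and 30.2% of all rows). In srm1-ts 13 had a higher change and 32 a lower one (22.5% and 27.7% of all rows). The cause was not tested.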

How the results depend on the processing

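Of 510 counts of called members under alternatives, 487 lay within 1.5 times the reported count. Of 1863 values of single members, 1815 kept direction and side of the threshold, 18 lost the call, 4 gained it and 26 reversed; the cause was not tested. Summing members with the genes beneath them gave 17 lower in ribo-depleted csl4-ph, 21 higher and 27 lower in enp1-1, 11 lower in dis3-1, 5 lower in the rrp6 deletion and 8 higher in csl4-ph against the rrp6 deletion. It gave 35 and 8 for the interaction in csl4-ph and 41 and 1 in enp1-1. The same sums turned ribo-depleted csl4-ph values to −0.18 (NUT0965), −1.64 (NUT1169), −0.38 (NUT0490) and −0.46 (NUT1342). They turned enp1-1 to −0.16 (NUT0258), −0.85 (NUT0490) and −0.35 (NUT0607), srm1-ts to −0.11 (NUT0891), dis3-1 to −0.59 (NUT0490) and −0.77 (NUT1342), and the rrp6 deletion to −0.037 (NUT0490) and −0.20 (NUT1342). NUT0490 in csl4-ph against the rrp6 deletion turned to −0.34, and interactions to 0.99 (NUT0607) and 1.70 (NUT0805) in csl4-ph and 1.76 (NUT1169) in srm1-ts. Scaling on ORFs gave 23 higher in csl4-ph against the rrp6 deletion and turned enp1-1 in oligo d(T) RNA to 0.082 (NUT0167) and 0.13 (NUT0490). NUT0013 in the rrp6 deletion turned to 0.077 with median-ratio scaling, 0.29 with scaling on ORFs, 0.077 with DESeq2 and 0.068 with the compared groups alone. With Pab1GFP in csl4-ph the 1 lower member became 10 with DESeq2, 2 with the replicate block and 0 with the compared groups alone, and in enp1-1 17 became 6 with the compared groups alone. Same-numbered libraries had correlations of −0.238 to 0.317 in tags, beside −0.328 to 0.306 for other pairs. In oligo d(T) groups of 3 they had 0.00787 to 0.0398, beside −0.0276 to 0.0108. These values were small or of both signs and do not exclude a pairing. The main fits used none, and the replicate block moved no other count by over 1.5 times.

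Leaving out single libraries gave 2 to 5 lower members in csl4-ph against enp1-1 (5 without csl4-ph oligo d(T) replicate 1) and 5 to 10 in csl4-ph tags (5 without csl4-ph empty vector replicate 3). With Pab1GFP it gave 0 to 11 lower members in csl4-ph (11 without csl4-ph Pab1GFP replicate 1) and 11 to 14 in enp1-1 (11 without enp1-1 Pab1GFP replicate 3). NUT0965 in ribo-depleted csl4-ph ran from −0.10 to 0.16, and NUT0013 in the rrp6 deletion from −0.0614 to 0.012. The scalings by median ratio moved the median of all rows by up to 0.17. Tags are the shallowest table, and 2 libraries per group limit dis3-1, the rrp6 deletion and the ribo-depleted control.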
